A study of Rattus norvegicus with 244 samples.

Results

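The 5 genes described here encode proteins of lipid metabolism: Gpd1, Pnpla2, Cyp4b1, Pla1a and Acer2. They were picked from these arrays because, among injured samples, their signal was highest at 24 h after the operation. They are 5 of the 10969 genes that have a probe set with a single gene symbol on the 3 array types A, B and C, and they are covered by 6 of 26202 probe sets. Each gene was read from its brightest probe set on average, and the second probe set of Gpd1 served as a check. The series profiled RNA from the raphe, which holds serotonin neurons that project to the spinal cord, and from the somatomotor cortex, where corticospinal axons arise. Per region, 4 naive samples had no operation, 24 came after a moderate spinal cord injury and 12 after a laminectomy without injury, called sham here. The 6 times sampled were 4 h, 24 h, 7 d, 14 d, 28 d and 3 months, with 4 injured and 2 sham samples at each. On type A the raphe sham group at 3 months held 1 sample, and on type C the naive raphe group held 3. Sham samples at 30 min (1 of raphe, 2 of cortex, type A alone) and at 72 h (1 of cortex) entered no comparison. The sources used here do not state strain, age or the spinal level of the injury.

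Cells store fatty acids as triglycerides in lipid droplets and release them again by lipolysis. Pnpla2 encodes adipose triglyceride lipase, which removes the first fatty acid from a triglyceride. Gpd1 encodes the cytosolic glycerol 3-phosphate dehydrogenase, which links glycolysis to glycerol 3-phosphate, the backbone of glycerolipids, and in the brain it is known as an oligodendrocyte enzyme induced by glucocorticoids. Cyp4b1 encodes a cytochrome P450 of a family that hydroxylates fatty acids. Pla1a encodes a secreted phospholipase that cuts phosphatidylserine to lysophosphatidylserine. Acer2 encodes a Golgi ceramidase that splits ceramide into sphingosine and a fatty acid.

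The deposited intensities had been scaled per array by the authors: over the 244 arrays of 84 samples the trimmed mean lay between 800.5 and 801.3 and the median between 185.8 and 410.5. The labels do not state that samples are separate animals, so p-values here measure only the spread between samples, which may be technical. On an expression score set to 0 in naive cortex and 1 in naive raphe, the other 40 cortex samples lay between -0.016 and 0.077 and the other 39 raphe samples between 0.90 and 1.02, leaving 5 samples that stood apart, called doubted here. These were the raphe sham sample replicate 1 at 3 months (score 0.062, a cortex value), the cortex sham replicate 1 at 3 months (0.66), the cortex sham replicate 2 at 14 d and the injured cortex replicate 2 at 7 d (5th percentile of signal 56.0 and 32.2, against 10.04 to 19.59 in the other cortex samples), and the injured raphe replicate 1 at 4 h (actin 3′ over 5′ ratio 56.2, against 1.25 to 2.60). They were chosen in earlier work on these data, and the differences they enter were also computed without them. For replicates 1 and 2 of injured cortex at 24 h on type A, the title gives 24 h and the description 4 h. The title was followed, which touches Cyp4b1, Pla1a and the second Gpd1 probe set. The source label reads raphe magno for every naive and sham raphe sample and raphe for every injured one, so that if the dissections differed, dissection and injury cannot be told apart in the raphe. Summed region markers followed the labels in naive samples and at 24 h. The summed signal of 8 cortex neuron markers was 47549 to 67799 in those cortex samples, against 2313 to 3406 in the raphe ones. The sum of 8 serotonin and brainstem neuron markers was 9520 to 13440 in those raphe samples against 1997 to 3383 in cortex, although Slc17a7 of the first list and Chat of the second lay at or below the median of antisense control probe sets in both regions. Over all arrays Slc17a6 had the highest mean of the second list (7612 in raphe, 1048 in cortex). Slc6a5 of that list was no higher in raphe (199.2) than in cortex (203.5).

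In the RefSeq annotation of build GRCr8, Gpd1 lies at chr7:132722982-132730373, Pnpla2 at chr1:205982279-205987361, Cyp4b1 at chr5:134375807-134413635, Pla1a at chr11:75825626-75863296 and Acer2 at chr5:106437773-106488572. These are whole gene spans, and where in its gene each probe set lies was not analysed here. Gpd1 was measured by rc_AI232970_at on type C and checked with AB002558_at on type A, Pnpla2 by rc_AI059513_at and Acer2 by rc_AA848826_at on type B, and Cyp4b1 by M29853_at and Pla1a by D88666_at on type A. Signal strength set what could be seen. Gpd1, Pnpla2 and Acer2 had mean intensities of 4342, 1357 and 993. Cyp4b1 and Pla1a had means of 62.6 and 64.0, below 145.9, the median of the 15 antisense control probe sets of type A, which measure no rat transcript of that strand.

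Promoters are shown because these genes were grouped for a shared time course. RefSeq promoter windows (GRCr8, 250 bases before to 50 bases after the start) were found for 4 of the 5 genes, all but Gpd1. The windows were read at chr1:205982029-205982328 (plus strand) for Pnpla2, chr5:106437598-106437897 (plus strand) for Acer2, chr11:75825376-75825675 (plus strand) for Pla1a and chr5:134393067-134393366 (minus strand, inside the annotated gene span) for Cyp4b1. Capitals mark every match, on either strand, to the motifs listed after the sequences.
Pnpla2 promoter: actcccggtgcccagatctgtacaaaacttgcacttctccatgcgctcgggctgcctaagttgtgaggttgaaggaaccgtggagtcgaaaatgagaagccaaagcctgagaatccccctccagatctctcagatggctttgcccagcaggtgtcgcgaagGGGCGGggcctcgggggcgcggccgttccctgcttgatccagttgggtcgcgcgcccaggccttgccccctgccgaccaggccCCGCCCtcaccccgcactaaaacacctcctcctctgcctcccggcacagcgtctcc
Acer2 promoter: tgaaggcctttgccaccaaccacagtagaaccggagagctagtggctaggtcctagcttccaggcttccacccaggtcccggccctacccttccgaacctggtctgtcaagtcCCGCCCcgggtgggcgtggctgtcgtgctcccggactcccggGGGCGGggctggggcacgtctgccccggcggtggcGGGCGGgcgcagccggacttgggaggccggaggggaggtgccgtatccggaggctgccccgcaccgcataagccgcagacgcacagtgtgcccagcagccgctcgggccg
Pla1a promoter: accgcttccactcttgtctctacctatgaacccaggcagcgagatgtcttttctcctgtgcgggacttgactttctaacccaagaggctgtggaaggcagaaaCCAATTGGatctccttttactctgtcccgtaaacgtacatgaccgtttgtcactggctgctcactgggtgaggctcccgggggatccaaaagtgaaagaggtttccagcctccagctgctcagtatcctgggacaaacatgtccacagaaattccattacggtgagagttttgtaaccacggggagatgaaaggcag
Cyp4b1 promoter: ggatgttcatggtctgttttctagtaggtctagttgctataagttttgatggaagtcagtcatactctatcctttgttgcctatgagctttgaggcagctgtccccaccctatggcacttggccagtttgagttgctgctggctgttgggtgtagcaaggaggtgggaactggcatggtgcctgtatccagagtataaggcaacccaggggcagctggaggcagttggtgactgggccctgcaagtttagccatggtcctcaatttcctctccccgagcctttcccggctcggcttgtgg
The motifs searched were the glucocorticoid receptor half-site AGAACA, the nuclear receptor half-site AGGTCA, the forkhead motif GTAAACA, the E-box CACGTG, the TATA-box letters TATAAA, the CAAT-box letters CCAAT and the GC box GGGCGG. The GC box was in the windows of Pnpla2 (2 matches) and Acer2 (3 matches) and in 33.1% of all 33469 rat promoter windows. The letters CCAAT were in the window of Pla1a, where matches on both strands overlap, and in 37.5% of all. None of the other 5 motifs was in any of the 4 windows, against 20.7% of all windows for AGAACA, 16.2% for AGGTCA, 3.78% for GTAAACA, 6.42% for CACGTG and 14.2% for TATAAA. The Acer2 and Pnpla2 windows held 27 and 20 CG dinucleotides, those of Pla1a and Cyp4b1 9 and 3, against a median of 7 over all windows. A match describes letters and not binding.

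Gpd1, the glycerol 3-phosphate enzyme, had its highest injured signal at 24 h in both regions. In injured raphe at 24 h the 4 samples read 8809, 14318, 9942 and 7890. At 4 h they read 5975, 11595, 3540 and 9689, and from 7 d to 3 months all 16 samples lay between 3336 and 5213. The 24 h samples were therefore above every injured sample from 7 d on and overlapped those at 4 h, where the spread was widest (log2 mean 12.78 ± 0.76 SD, n = 4; 12.85 ± 0.92, n = 3, without the doubted sample). On the log2(intensity + 32) scale, the 24 h mean of 13.29 ± 0.37 (SD, n = 4) was 0.51 above the 4 h mean, a step smaller than the SD at 4 h, and 1.10 ± 0.18 (SE of the fit) above the mean of the other 5 times. The second probe set gave 1.29 ± 0.35. In these bulk tissue samples, fewer cells of a type and less RNA per cell cannot be told apart. Beside this difference, 7 of 7 oligodendrocyte markers had positive differences in the same comparison (median 0.27), and 4 of 4 choroid plexus markers tested had negative ones (median -0.76), with none past the adjusted threshold in limma and 2 and 1 at an unadjusted p under 0.05. Of all 9213 genes tested, 45.6% had positive differences, and 1231 of 18716 probe sets had an unadjusted p under 0.05. By summed signal, 0 of 12 marker lists separated the 24 h samples from the other injured times. The part of the markers in the result was not tested.

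In injured cortex Gpd1 read 5695, 4671, 5029 and 5549 at 24 h and 4610, 4275, 5287 and 4785 at 4 h, so these times overlapped. From 7 d on the 16 samples lay between 1468 and 3341, all below. The 24 h mean of 12.36 ± 0.13 (SD, n = 4) stood 0.14 above the 4 h mean and 0.83 ± 0.13 (SE) above the other 5 times. The second probe set gave 1.18 ± 0.30. On it the 2 arrays whose labels conflict on the time read 1322 and 1111 and the other 24 h samples 1240 and 1547, so these overlapped.

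Pnpla2, the triglyceride lipase, followed a similar course. In injured raphe at 24 h it read 2599, 2948, 2499 and 2806, against 2564, 2319, 1235 and 1949 at 4 h. The sample at 2564 was the doubted one, and without it every 24 h sample was above every other injured raphe sample. From 7 d on the samples lay between 900.2 and 1537. The 24 h mean of 11.42 ± 0.11 (SD, n = 4) was 0.47 above the 4 h mean of 10.95 ± 0.46, about the 4 h SD, and 0.95 ± 0.13 (SE) above the other 5 times (0.97 without the doubted samples). In injured cortex Pnpla2 read 1532, 1873, 1352 and 1562 at 24 h, 1255, 1359, 1225 and 1501 at 4 h, and 850.5 to 1432 later. These ranges overlapped, and the 24 h mean was 0.47 ± 0.13 (SE) above the other times.

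**Figure D1:**
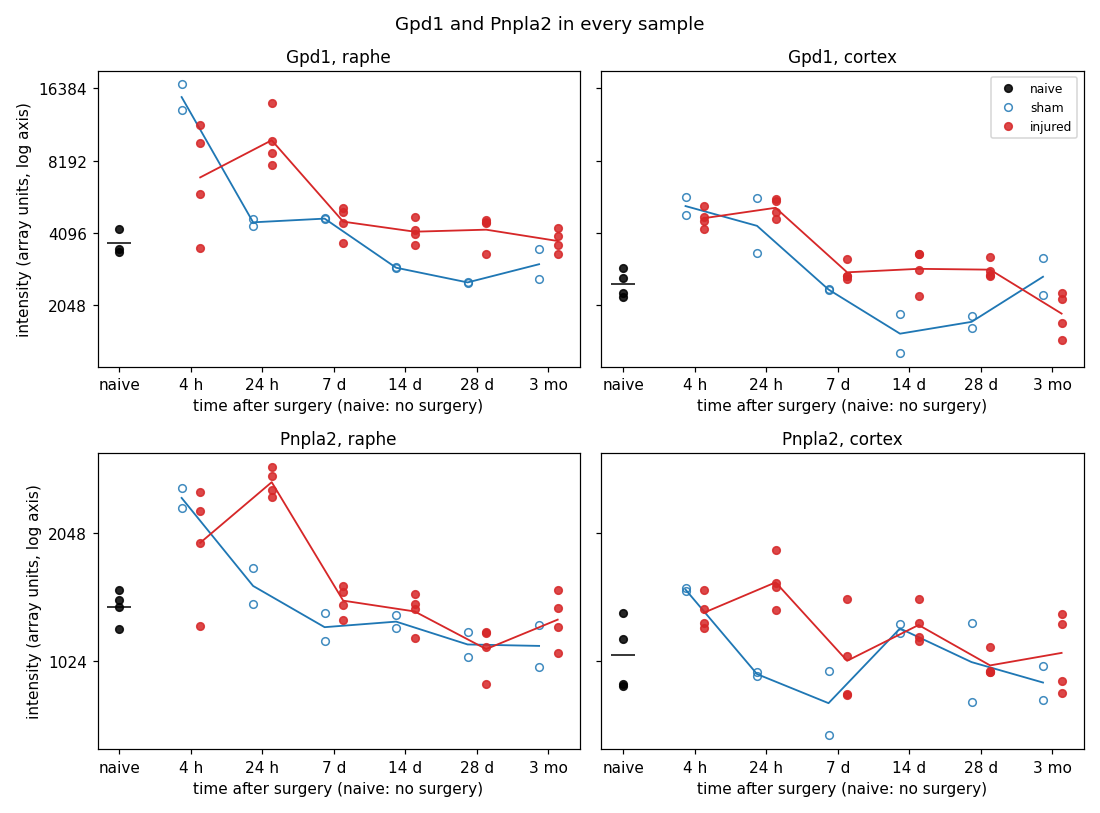
Intensity (array units, log axis) of Gpd1 and Pnpla2 in each raphe and cortex sample against time after the operation. Filled red points are injured, open blue points sham and black points naive samples, and lines join group means. In the raphe, sham samples were highest at 4 h (Gpd1 13350 and 17052) and injured samples highest at 24 h.

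Cyp4b1, the P450, was at or near the background of the arrays in most samples. In injured raphe at 24 h it read 206, 245, 410 and 228, above the control median of 145.9 in all 4 samples. Only the sample at 410 exceeded 303.2, the 95th percentile of the mean signals of these controls. No other injured raphe sample exceeded 179.6, the highest at 7 d, so the 24 h samples did not overlap the other times. The injured means ranked in the order 24 h (8.20 ± 0.40 SD), 7 d (7.28 ± 0.44), 4 h (7.11 ± 0.34), 14 d (7.06 ± 0.38), 28 d (6.40 ± 0.54) and 3 months (5.97 ± 0.26), n = 4 each. After the first step of 0.92, only the step from 14 d to 28 d (0.66) was larger than the SDs on both of its sides. The 24 h mean was 1.44 ± 0.23 (SE) above the other 5 times. In cortex all 43 samples were at or below the 40th percentile of their array, and the injured mean was highest at 3 months (6.03) rather than at 24 h (5.97). The name of a 24 h peak therefore held for Cyp4b1 in the raphe and not in the cortex.

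Pla1a, the phosphatidylserine phospholipase, read 156, 230, 194 and 206 in injured raphe at 24 h, all below the 95th percentile of the controls (303.2). The highest of the other 20 injured raphe samples was 119, the doubted sample at 4 h, so these too did not overlap. The 24 h mean of 7.83 ± 0.20 (SD, n = 4) was 1.44 ± 0.19 (SE) above the other times, and the other 5 means lay between 6.17 and 6.70. In cortex the 24 h samples read 49.8, 210, 126 and 46.4. The sample at 210 is one of the type A arrays whose description gives 4 h, and of 43 cortex arrays it alone put Pla1a above the 40th percentile. The cortex difference of 0.72 ± 0.27 (SE) therefore concerns a probe set that did not pass the filter on low values there.

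All 5 genes passed the filter on low values (the 40th percentile exceeded on 4 arrays) in the raphe, and 3 did in the cortex. Pla1a passed in the raphe only through the group that defined it, since 4 of the 5 arrays above the limit were injured samples at 24 h and 1 was a sham sample. For Cyp4b1 the 10 arrays above it were 4 injured samples at 24 h, 4 at other times and 2 sham samples, so it would have passed without that group. Their differences also depended on the constant added before the logarithm: with 1 added they were 1.85 for Cyp4b1 and 1.93 for Pla1a, and with a constant 4 times as large as 32, 0.91 and 0.84.

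**Figure D2:**
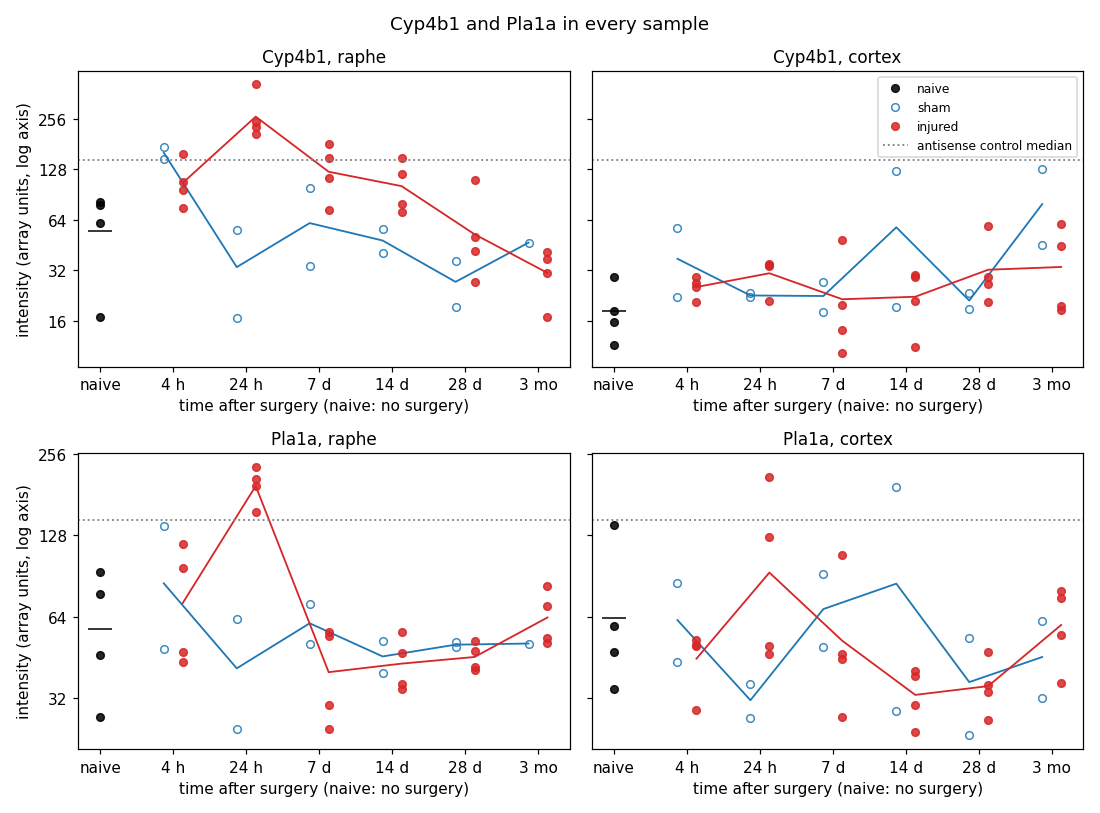
Intensity (array units, log axis) of Cyp4b1 and Pla1a in each sample, drawn as for Gpd1, with the median of the type A antisense control probe sets (145.9) as a dotted line. All 8 values of injured raphe at 24 h lie above that line, and most other values lie below it. Of the 8, only the Cyp4b1 value of 410 exceeds 303.2, the 95th percentile of the controls, which is not drawn.

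Acer2, the Golgi ceramidase, was high at both 4 h and 24 h in injured cortex, with no clear peak at 24 h alone in either region. In injured cortex at 24 h it read 1337, 2039, 1792 and 1633, and at 4 h 2130, 1260, 2248 and 1097. These times overlapped, with means of 10.74 ± 0.25 and 10.68 ± 0.52 (SD, n = 4). All 16 later samples lay between 551.5 and 1056, below every 24 h and 4 h sample. The 24 h mean was 0.81 ± 0.15 (SE) above the other 5 times. In injured raphe the means of the 6 times lay between 9.98 and 10.19, and the 24 h samples read 1317, 831, 827 and 1824, inside the range of the other times apart from the last. The raphe difference of 0.13 ± 0.19 (SE) was smaller than its error, so the 24 h peak did not hold for Acer2 in the raphe.

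**Figure D3:**
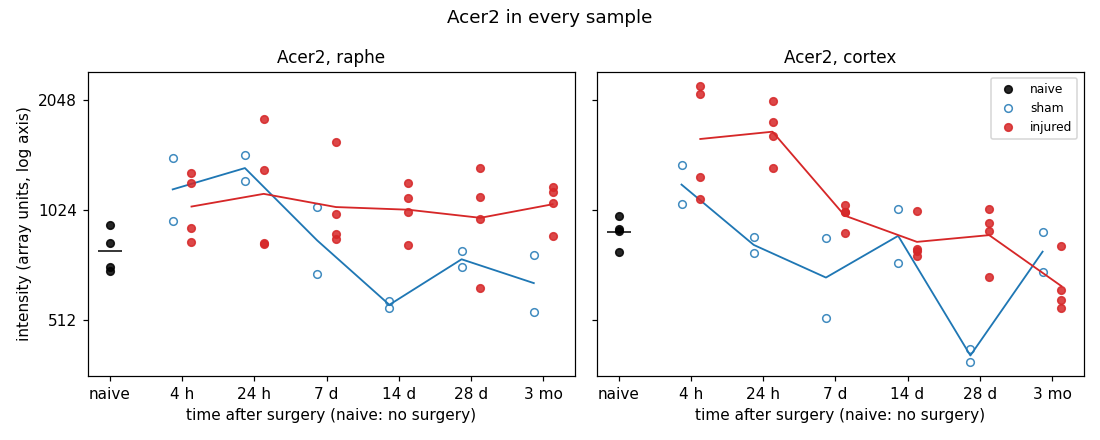
Intensity (array units, log axis) of Acer2 in each sample, drawn as for Gpd1. Injured cortex samples at 4 h and 24 h (1097 to 2248) lie above all later ones (551.5 to 1056), while injured raphe samples of the 6 times overlap.

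These comparisons among injured samples are the ones that chose the genes, so they carry no test. Of the 5 genes, 2 had 24 h raphe samples above all other injured raphe samples, as had 0.102% of the 18716 probe sets tested in the raphe. In cortex none of the 3 genes that passed the filter did, against 0.0586% of 18769. Since the rule used the contrast, nothing is read from these counts. Without the doubted samples the raphe differences were 1.09 for Gpd1, 0.97 for Pnpla2, 1.42 for Cyp4b1, 1.47 for Pla1a and 0.11 for Acer2, and the cortex ones 0.83 for Gpd1, 0.50 for Pnpla2 and 0.82 for Acer2.

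The comparison with sham samples at the same time asks whether the 24 h level went with the injury or with the operation. It uses the same injured samples that chose the genes and is given as a description, and in the raphe the difference in source labels stands beside it. In the raphe at 24 h the 2 sham samples read 4702 and 4385 for Gpd1, 1696 and 1396 for Pnpla2, 55.7 and 16.7 for Cyp4b1 and 62.5 and 24.6 for Pla1a, below all 4 injured samples for each of these genes. The injured mean was higher by 2.17 ± 0.37 (SE) for Cyp4b1, 1.63 ± 0.30 for Pla1a, 1.13 ± 0.29 for Gpd1 and 0.80 ± 0.20 for Pnpla2. Acer2 read 1232 and 1449 in sham, within the injured range, with a difference of -0.23 ± 0.29. Groups of 4 and 2 separate easily: injured samples lay above both sham samples for 6.75% of all probe sets in the raphe, against 4 of the 5 genes, from which nothing is read, since these injured samples chose them. Leaving out 1 sham sample moved the Cyp4b1 difference between 1.75 and 2.60 and the Pla1a difference between 1.26 and 2.00. With 1 added in place of 32 the differences were 3.05 and 2.28, and with the larger constant 1.27 and 0.92.

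In the cortex at 24 h, Acer2 read 780 and 867 in sham and was higher in injured samples by 1.00 ± 0.24 (SE). Pnpla2 read 940 and 965 and was higher by 0.70 ± 0.21. For both genes the groups did not overlap, as for 8.48% of probe sets in cortex. Gpd1 read 5718 and 3368 in sham, and the injured samples fell inside that range, with a difference of 0.25 ± 0.20. This value turned on the 2 sham samples: it was 0.63 without sham replicate 1 and -0.13 without sham replicate 2. The second Gpd1 probe set gave 1.24 ± 0.47 with no overlap (sham 406 and 694), so the probe sets disagreed at this point. Pla1a (0.98 ± 0.42) and Cyp4b1 (0.20 ± 0.32) did not pass the filter.

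Over the other times the difference between injured and sham samples had both signs for Gpd1 in the raphe. At 4 h the sham samples read 13350 and 17052, above all 4 injured samples. The injured mean was 12.78 (12.85 without the doubted sample) against 13.88 in sham, and the difference was -1.11 ± 0.29 (SE; second probe set -1.86 ± 0.56; -1.03 and -1.35 without the doubted sample), where 7.56% of raphe probe sets had injured samples below both sham samples. At 7 d it was -0.04 ± 0.29, and at 14 d, 28 d and 3 months 0.49 ± 0.29, 0.72 ± 0.29 and 0.32 ± 0.29. The 3 month value rests on a doubted sham sample, and was 0.11 ± 0.36 without it. Beside this 4 h difference, summed oligodendrocyte markers were 84768 to 134258 in injured raphe and 144045 and 150978 in sham, and summed astrocyte markers 80794 to 108346 against 145623 and 160357. The sum of cortex neuron markers was 2183 to 4871 against 2005 and 2144. These 3 of 12 marker lists did not overlap, and their part in the result was not tested. The second probe set gave 0.67 ± 0.56, 1.26 ± 0.56, 1.73 ± 0.56 and 1.17 ± 0.72 at 7 d, 14 d, 28 d and 3 months. Pnpla2 in the raphe moved from -0.35 ± 0.20 at 4 h to between -0.04 and 0.20 from 7 d on, where 0.20 at 3 months was 0.04 without the doubted sham sample. Cyp4b1 was 0.74 ± 0.37 both at 7 d and at 14 d and -0.48 ± 0.37 at 4 h. Without the doubted sample the 4 h values were -0.48 for Pnpla2 and -0.36 for Cyp4b1. In the cortex Acer2 was higher in injured samples at 7 d by 0.54 ± 0.24 and at 28 d by 1.04 ± 0.24, where the sham samples read only 426 and 392, and was -0.05 ± 0.24 at 14 d. Without the doubted samples the 7 d value was 0.51 ± 0.25 and the 14 d value 0.18 ± 0.31, so the sign at 14 d rests on a doubted sham sample. Gpd1 in the cortex was 0.88 ± 0.20 at 14 d, 0.71 ± 0.20 at 28 d and -0.50 ± 0.20 at 3 months. The sham groups of 14 d and 3 months each hold a doubted sample, and without it the differences were 0.62 ± 0.25 and -0.25 ± 0.25. Acer2 in the raphe was 0.83 ± 0.29 at 14 d, where sham samples read 552 and 575, and 0.69 ± 0.29 at 3 months, where they read 539 and 772, the first of them doubted, and 0.44 ± 0.37 without that sample.

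**Figure D4:**
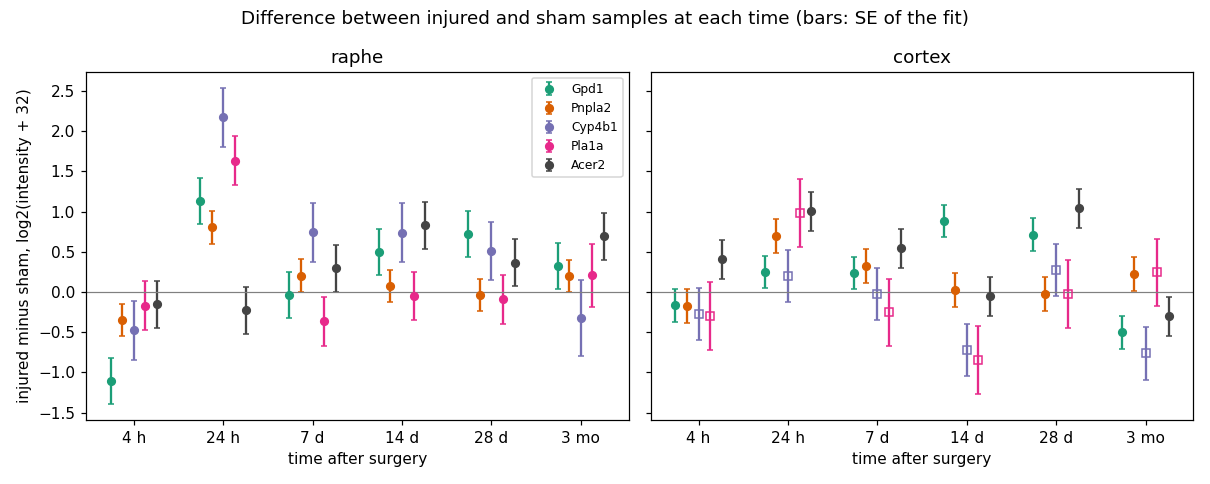
Injured minus sham difference in log2(intensity + 32) at each time in the raphe (left) and the cortex (right), with bars for the SE of the fit. Open squares are probe sets that did not pass the filter in that region. In the raphe, Gpd1 lies at -1.11 at 4 h and 1.13 at 24 h. All samples are included, the doubted ones too.

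Markers of other cells at 24 h are given beside these differences. In the raphe the summed signal of 5 choroid plexus markers was 1410 and 32037 in the 2 sham samples against 845 to 2619 in the injured ones. The sum of 7 oligodendrocyte markers was 137967 and 146053 in sham against 128672 to 188725 in injured raphe, and that of 8 microglia and macrophage markers 6732 and 7671 against 5307 to 6795. Of 6 adipocyte markers, 5 (Adipoq, Plin1, Cfd, Fabp4 and Pparg) lay at or below the antisense control median in both regions. The sum of the 6 was 3591 and 3846 in sham and 3343 to 4017 in injured raphe. It rests almost wholly on the Lep probe set, with a mean of 3878 over all raphe arrays. In the cortex the sum of 7 blood cell markers was 42783 and 50119 in sham against 57229 to 91295 in injured samples, and that of serotonin and brainstem neuron markers 3296 and 3383 against 2323 to 2784. These 2 of 12 lists did not overlap in the cortex, and none of the 12 separated in the raphe. The cortex neuron sum was 63374 and 67799 in sham cortex against 47549 to 63829. There the actin 3′ over 5′ ratio was 1.69 and 1.78 in sham and 1.32 to 1.46 in injured samples, also with no overlap. The part of these in the differences was not tested.

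The tests that follow used sham and naive samples alone, and the choice of genes used the injured ones. Pla1a entered the raphe tests only through the injured samples at 24 h, where it is high, so it is left out of the counts and its values are given with no p-value. Whether the operation itself gave a 24 h peak was asked by setting sham samples at 24 h against the other 5 sham times. In the raphe 0 of the other 4 genes passed the adjusted threshold of 0.05 (limma, Benjamini-Hochberg over all probe sets), against 0.016% of all probe sets. At an unadjusted p under 0.05 were 726 of 18716 probe sets and 1 of the 4 genes. This was Acer2, higher by 0.77 ± 0.26 (SE, n = 2 and 10, adjusted p = 0.959 in limma, 2 of 2 samples). Gpd1 differed by 0.05 ± 0.26, Pnpla2 by 0.16 ± 0.18, Cyp4b1 by -0.50 ± 0.33 and Pla1a by -0.29 ± 0.28. The other 5 times include 4 h, where the raphe sham means of Gpd1 (13.88), Pnpla2 (11.30) and Cyp4b1 (7.59) were highest. That raises the mean set against 24 h, so these values do not compare 24 h with the later times alone. In the cortex 0 of 3 genes passed, against 0.0373% of probe sets. At an unadjusted p under 0.05 were 1379 of 18769 probe sets and 1 of the 3 genes. Gpd1 was higher at 24 h by 0.82 ± 0.18 (adjusted p = 0.0958 in limma, 2 of 2 samples), and passed without sham replicate 1 of 14 d (adjusted p = 0.0287) or without sham replicate 2 of 24 h (adjusted p = 0.0177, the lone sample being assumed to vary like the others). Without sham replicate 1 of 24 h the difference was 0.44 (adjusted p = 0.81), and the second probe set gave 0.29 ± 0.42 (adjusted p = 0.931). Acer2 and Pnpla2 differed by 0.14 ± 0.22 and -0.16 ± 0.19 in cortex. There too the sham means of Gpd1, Acer2 and Pnpla2 were highest at 4 h.

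Over both regions together 0 of the 4 genes passed in limma, against 0.0257% of probe sets. Acer2 (0.45 ± 0.17), Gpd1 (0.43 ± 0.16) and Cyp4b1 (-0.45 ± 0.22) had unadjusted p-values under 0.05, with adjusted p-values of 0.447, 0.417 and 0.69. An unadjusted p under 0.05 was reached by 1375 of 19453 probe sets. The difference between the regions in this contrast was passed by 0 of 4 genes, against 0.00514% of probe sets. It was -0.77 ± 0.31 for Gpd1 (raphe minus cortex, adjusted p = 1.00 in limma, the only one of the 4 with an unadjusted p under 0.05), while the second probe set gave 0.38 ± 0.67. Of all 19453 probe sets, 660 had an unadjusted p under 0.05. Sham at 24 h against naive samples gave 0 genes past the threshold in either region, against 0.0267% of probe sets in the raphe and 0.0213% in the cortex. Acer2 in the raphe (0.74 ± 0.29, adjusted p = 0.698) and Gpd1 in the cortex (0.79 ± 0.20, adjusted p = 0.261) had an unadjusted p under 0.05. So had 1139 of 18716 probe sets in the raphe and 1205 of 18769 in the cortex. Leaving out the doubted samples brought none of these genes past the threshold in these comparisons.

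The 4 h sham samples were compared with the later ones after their values had been seen. In the raphe Gpd1 rose at 4 h: the 2 sham samples read 13350 and 17052, against 2542 to 4740 in the 10 later ones. The difference was 2.12 ± 0.26 (SE, adjusted p = 5.75e-05 in limma), and the second probe set rose by 2.57 ± 0.51 (adjusted p = 0.0346). Pnpla2 rose too, with 2352 and 2625 at 4 h against 988 to 1696 later, a difference of 0.98 ± 0.18 (adjusted p = 0.0154 in limma). These are 2 of the 4 genes, where 0.0908% of all probe sets passed. For Gpd1, Pnpla2 and Cyp4b1 both 4 h samples were above all later ones, as for 2.17% of probe sets. Gpd1 passed with 1 of the 4 h samples left out (adjusted p at most 0.0169), but Pnpla2 did not (adjusted p = 0.0731 without replicate 1 and 0.357 without replicate 2). Cyp4b1 read 174 and 147 at 4 h, above all 9 later sham samples (16.7 to 99.1), with a difference of 1.37 ± 0.33 that missed the threshold (adjusted p = 0.121 in limma; 0.0523 without the doubted samples). With array quality weights it passed (adjusted p = 0.0213), and over the other alternatives that leave out no single sample the adjusted p was at most 0.177. Acer2 did not pass (0.54 ± 0.26, adjusted p = 0.792), and Pla1a differed by 0.52 ± 0.28. Of 12 marker lists, 2 did not overlap between the 4 h and later raphe sham samples. Microglia and macrophage markers summed to 8301 and 8471 at 4 h against 4864 to 8084 later, and cortex neuron markers to 2005 and 2144 against 2333 to 3455. Choroid plexus markers summed to 1094 and 28740 at 4 h. The part of these in the result was not tested.

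In the cortex Gpd1 rose at 4 h as well, with 4849 and 5807 against 1295 to 5718 in the 10 later sham samples, a range that overlaps through 1 sample at 24 h. The difference was 1.14 ± 0.18 (SE, adjusted p = 0.00278 in limma), 1 of the 3 genes tested where 0.112% of probe sets passed, and the second probe set rose by 2.07 ± 0.42 (adjusted p = 0.0331). It did not pass without replicate 2 of 4 h (1.01, adjusted p = 0.185). Acer2 (0.78 ± 0.22, adjusted p = 0.234) and Pnpla2 (0.62 ± 0.19, adjusted p = 0.33) had 4 h samples above all later sham samples, as had 1.75% of probe sets, and missed the threshold. Set against sham at 24 h alone, 0 genes passed in limma in the raphe (0.0107% of probe sets did) and 0 in the cortex (0% of probe sets), with 3 and 1 genes at an unadjusted p under 0.05. Over all probe sets the unadjusted counts were 489 of 18716 and 669 of 18769. Raphe Gpd1 differed there by 1.73 ± 0.33 (adjusted p = 0.079; 0.0493 without the doubted samples and 0.00737 with array quality weights).

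Raphe and cortex samples were compared as separate ones, and the labels do not say whether any came from the same animal. Between regions, 0 of the 4 genes passed in naive samples, where 14.2% of probe sets did. At an unadjusted p under 0.05 were 3 of the 4 genes and 4951 of 19453 probe sets. Cyp4b1 was higher in naive raphe by 0.79 ± 0.28 (SE, n = 4 and 4, adjusted p = 0.0508 in limma, 3 of 4 samples). In the fit without the doubted samples, which changes only the estimate of the spread, the adjusted p was 0.0168 in limma. All its naive values (16.9 to 81.6 in raphe, 11.4 to 29.0 in cortex) lay below the antisense control median of 145.9, so this difference lies within the background. Gpd1 was higher by 0.55 ± 0.22 (adjusted p = 0.0834, 3 of 3 samples), and its naive values did not overlap (3413 to 4249 in raphe, 2226 to 2931 in cortex). Pnpla2 was higher by 0.37 ± 0.16 (adjusted p = 0.132). With the larger number of sham samples, 2 of the 4 genes were higher in raphe, where 32.7% of all probe sets differed and 15.7% were higher. Gpd1 differed by 0.69 ± 0.12 (n = 12 and 12, adjusted p = 2.68e-06 in limma, 9 of 12 samples) and Pnpla2 by 0.40 ± 0.10 (adjusted p = 5.34e-04, 10 of 12 samples). Without the doubted samples these were 0.72 and 0.46, and Cyp4b1 then also passed (0.55, adjusted p = 0.00455, against 0.33 ± 0.17 and 0.134 with all samples). The second Gpd1 probe set showed no such difference (0.01 ± 0.26, adjusted p = 0.976). Whether 2 of 4 genes exceed the 15.7% of all probe sets was not tested, and nothing is read from this count.

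Neighbouring pathways were covered by 7 lists chosen by function, with the 5 genes left out and with earlier results of these data known. At 24 h against the other injured times, 0 of 12 genes for triglyceride breakdown and lipid droplets, 0 of 11 for glycerolipid synthesis, 0 of 13 fatty acid P450 and epoxide enzymes, 0 of 17 phospholipase and lysophospholipid genes, 0 of 16 ceramide and sphingosine genes and 0 of 25 fatty acid oxidation genes passed in the raphe in limma, against 0.0962% of all probe sets. At an unadjusted p under 0.05 the counts were 0, 1, 0, 1, 0 and 3, and 1231 of 18716 over all probe sets. The 2 brightest genes of each list were the monoglyceride lipase gene Mgll (-0.02 ± 0.18) and the lysosomal lipase gene Lipa (0.19 ± 0.19), the glycerol phosphate phosphatase gene Pgp (0.03 ± 0.15) and the acyltransferase gene Agpat1 (0.20 ± 0.16), and the P450 reductase gene Por (-0.07 ± 0.14) and the epoxide hydrolase gene Ephx2 (0.28 ± 0.27). They were also the autotaxin gene Enpp2 (-0.38 ± 0.29) and the lysophospholipase gene Lypla2 (-0.17 ± 0.12), the acid sphingomyelinase gene Smpd1 (0.13 ± 0.12) and the ceramide desaturase gene Degs1 (-0.05 ± 0.29), and the transcription factor gene Foxo3 (-0.32 ± 0.18) and the pyruvate dehydrogenase kinase gene Pdk2 (0.18 ± 0.11). The medians of the 6 lists lay between -0.17 and 0.10, beside -0.02 over all 9213 genes tested. In the cortex 0 genes of these 6 lists passed (0.048% of probe sets did), with 0, 1, 1, 0, 0 and 3 at an unadjusted p under 0.05 and medians from -0.17 to 0.12. There 762 of 18769 probe sets had an unadjusted p under 0.05.

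The seventh list held genes known to respond to glucocorticoids, and it too was chosen with earlier results of these data known. The sham comparisons at 4 h were made after values had been seen, so its counts there are a description. In injured raphe at 24 h 1 of its 19 genes passed, the sulfotransferase gene Sult1a1, which rose by 1.35 ± 0.24 (adjusted p = 0.00802 in limma), where 0.0962% of all probe sets passed, and the list median was 0.28, beside -0.02 over all genes. In sham samples at 4 h 1 of 19 rose in the raphe, Fkbp5, a cochaperone of the glucocorticoid receptor, by 2.60 ± 0.50 (adjusted p = 0.0295 in limma), where 0.0908% of all probe sets passed. There 17 of 19 differences were above 0, as were 53.0% of all genes tested, and the list median was 0.93 beside 0.02. In the cortex Fkbp5 rose by 2.61 ± 0.35 (adjusted p = 2.85e-04 in limma), the only 1 of 18 genes to pass where 0.112% of probe sets did. There 16 of 18 differences were above 0, as were 52.0% of all genes, with a median of 0.55 beside 0.01. In injured cortex at 24 h 0 of 18 passed (0.048% of probe sets did), with a median of 0.03. At an unadjusted p under 0.05 were 3 of the 18 and 762 of 18769 probe sets. None of the 6 lipid lists had a gene past the threshold in sham samples at 4 h in either region, with 0 to 4 genes a list at an unadjusted p under 0.05. Over all probe sets 1169 of 18716 in the raphe and 1271 of 18769 in the cortex had such a p.

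**Figure D5:**
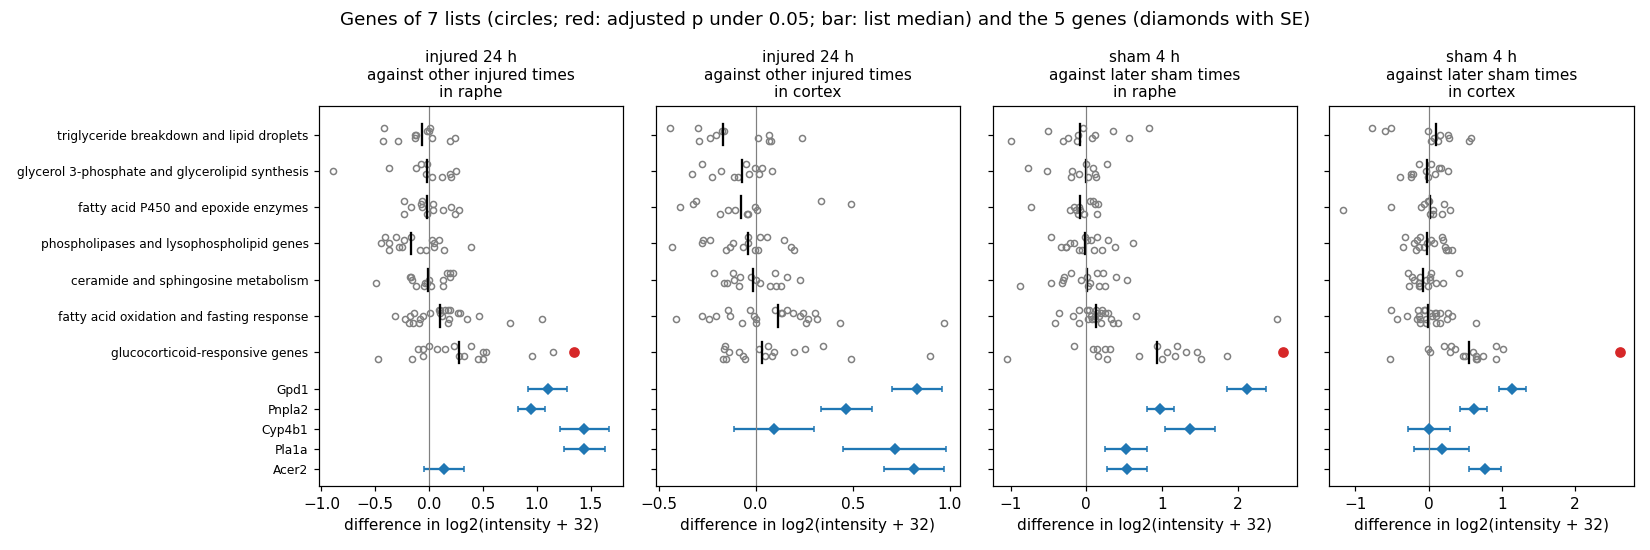
Differences in log2(intensity + 32) of single genes of the 7 lists (circles, with a bar at the list median) and of the 5 genes (diamonds with SE) in 4 comparisons. Filled red circles passed the adjusted threshold: Sult1a1 in injured raphe at 24 h and Fkbp5 in sham samples at 4 h in both regions.

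The patterns of the 5 genes were compared over 26 group means (naive, 6 sham and 6 injured groups in each region, centred within region). These correlations describe groups that share samples and scaling. The injured means that chose the genes are among the group means. Likeness among the 5 genes, and of other genes to them, is therefore partly built in, and the values are a description. Gpd1 and Pnpla2 were alike in the raphe (r = 0.92 over 13 group means) and less so in the cortex (r = 0.53). Gpd1 and Cyp4b1 had r = 0.81 in the raphe and -0.15 in the cortex, where Cyp4b1 was at background. Gpd1 and Acer2 had r = 0.78 in the cortex and 0.64 in the raphe. Cyp4b1 and Acer2 were the least alike of the 10 pairs (0.23 over all 26).

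Among 8930 other genes, those with the pattern most like Gpd1 were the phosphatase gene Ptp4a3 (r = 0.90), Gpatch4 (0.89) and Fkbp5 (0.85). For Pnpla2 they were the nucleoside transporter Slc29a3 (0.81), Atosa (0.79) and Mfsd2a (0.77), a lysophosphatidylcholine transporter of brain endothelium. For Cyp4b1 they were the cell cycle inhibitor Cdkn1a (0.67), Slc29a3 (0.67) and Ptp4a3 (0.66), with r of 0.79 to 0.84 in the raphe and 0.08 to 0.23 in the cortex. For Pla1a they were the phosphatase gene Dusp3 (0.65), the peroxisomal gene Pex11a (0.62) and Sult5a1 (0.60). For Acer2 they were Gtf2h5 (0.71), a subunit of a transcription and DNA repair complex, the proton pump subunit Atp6v0e1 (0.69) and Ybx3 (0.67). Fkbp5 and Cdkn1a also stood on the glucocorticoid list. The share of that list among the 8930 genes was not computed, so nothing is read from this. Ptp4a3 and Slc29a3 were each among the nearest of 2 of the 5 genes.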

How the data were processed

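Total RNA of raphe and somatomotor cortex was measured on probe sets of 3 array types. The deposited values are linear intensity, 1 per probe set, and the authors had scaled each array, since the trimmed mean (2% off each end) is nearly constant. The sources used here do not name the software that made them. The deposited intensities were kept, 32 was added and the log2 taken. Gene names came from the platform annotation and were looked up in RefSeq: of 26202 probe sets without the 59 controls of each type, 18178 had 1 symbol, 391 several and 7633 none.

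Tests in a region kept probe sets with 4 or more arrays past the 40th percentile of that array, which left 18716 in the raphe, 18769 in the cortex and 19453 over both. Linear models of group means (limma 3.58.1, R 4.3.3) were fitted within each array type, with all groups of the region (or both) sharing the spread. Tests were two-sided, with Benjamini-Hochberg adjustment over the 3 types together. The fit was tested on simulated data. No p-value is given for comparisons of injured samples of the 5 genes. The number of arrays and the signal over background limit the precision.

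The 5 genes, the lists and the doubted samples were chosen with earlier results of these data known, and the sham 4 h comparisons after their values were seen. Beside the 5 genes, the text names list genes past the threshold (at most 5 a list) or the most strongly expressed of the list, and the 3 genes most alike in pattern. Alternatives were another constant (1, or 4 times 32), no filter or the 60th percentile, quantile normalization, array quality weights, adjustment within array types, the replicate number as a block, other probe sets, and leaving out each sample, the doubted samples or the arrays of conflicting labels.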

Additional observations from a re-analysis of the deposited data

Results flagged for a closer look

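Of 69 groups of 4 samples examined for a sample far from the other 3 (a check that chance meets in about 1 group in 20), 6 had one. For Acer2 it was injured cortex replicate 2 at 14 d, the highest at 1016. For Pnpla2 it was injured cortex replicate 2 at 28 d, the highest at 1105. For Gpd1 it was injured cortex replicate 3 at 7 d, the highest at 3200, and injured raphe replicate 2 at 28 d, the lowest at 3341. For Cyp4b1 it was injured cortex replicate 2 at 24 h, the lowest at 21.0 and one of the arrays with conflicting labels. For Pla1a it was injured cortex replicate 1 at 4 h, the lowest at 28.8. None of these is a raphe sample at 4 h or 24 h.

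The injured minus sham difference of Gpd1 in the raphe lay on opposite sides at different times, with every injured sample on 1 side of both sham samples. It was -1.11 at 4 h (-1.03 without the doubted sample), 1.13 at 24 h, 0.49 at 14 d and 0.72 at 28 d. This difference between times was not tested, because the injured samples chose the gene.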

How the results depend on the processing

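Single-gene values were compared with the main ones under the alternatives that leave out no single sample. They were the tests on sham and naive samples and the differences of injured samples, which have no test. A tested value counted as unchanged if it kept its direction and side of the threshold. A value without a test counted as unchanged if it moved by less than the replicate spread, whatever its sign. By these rules 585 were unchanged, 11 newly passed and 2 no longer passed (Gpd1 between sham regions with the second probe set, 0.01, and Pnpla2 there with the replicate block). Values without a test moved by more than the replicate spread in 9 cases, and tested values changed sign in 7. The tallies and the counts past the threshold in this section include Pla1a, which passed the filter only through injured raphe samples at 24 h. Nothing is read from its values. Gpd1 and Pnpla2 changed sign only in values that passed no threshold. These were 0.38 for Gpd1 in the difference between regions and -0.15 in sham at 24 h against naive raphe (second probe set), and -0.0061 for Pnpla2 over both regions (quantile normalization). Those of Pla1a were 0.00010 and 0.038 in naive regions (quantile normalization and replicate block) and -0.0015 between sham regions (larger constant). Pla1a was also -0.030 in the difference between regions (without the doubted samples). The number of genes with a positive difference in injured samples at 24 h, against other times and against sham, went from 3 to 5 in cortex with no filter, and in raphe from 5 to 3 and from 4 to 2 with the filter at the 60th percentile. Between naive regions the number past the threshold went from 0 to 1 (with 1 added, adjustment within array types, quantile normalization or without the doubted samples) or 2 (array quality weights). For raphe sham at 4 h against later times it went from 2 to 3, with Cyp4b1, with array quality weights. For raphe sham at 4 h against 24 h it went from 0 to 1 (array quality weights, or without the doubted samples). Between sham regions it went from 2 to 1 with the replicate block, where Pnpla2 had 0.35 (adjusted p = 0.118). The cause was not tested.

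Of 19 injured minus sham differences at the other times that hold a doubted sample, chosen for this after seeing the data, 17 moved by less than the replicate spread without it and 2 by more (Gpd1 in cortex, 0.62 at 14 d and -0.25 at 3 months).

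Leaving out 1 sample at a time, the number of genes past the threshold ranged from 0 to 1 between naive regions, for cortex sham at 24 h against other times and for cortex sham at 4 h against later times, and from 1 to 2 for raphe sham at 4 h against later times. Ranges that crossed 0 were -0.51 to 0.34 (Cyp4b1) and -0.16 to 0.58 (Pla1a) in the difference between regions, -0.27 to 0.19 for Pla1a between naive regions, and -0.84 to 0.015 (Cyp4b1) and -0.66 to 0.080 (Pla1a) for raphe sham at 24 h against naive. Against other sham times in raphe they were -0.0012 to 0.099 (Gpd1) and -0.66 to 0.081 (Pla1a), and over both regions -0.067 to 0.071 (Pnpla2). They were also -0.018 to 1.06 for Pla1a in raphe sham at 4 h against later times, -0.11 to 0.65 for Gpd1 in cortex and -0.47 to 0.091 for Acer2 in raphe sham at 4 h against 24 h, -0.13 to 0.19 for Pla1a between sham regions, -0.088 to 0.28 for Acer2 in injured raphe at 24 h against other injured times, and -0.13 to 0.63 for Gpd1 in injured against sham cortex at 24 h.

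Counts over all probe sets moved by over 1.5 times in most comparisons. With array quality weights, raphe sham at 4 h against later times went from 17 to 137 probe sets and cortex from 21 to 55. Within a region, same-numbered samples of different groups did not deviate together on type B (median r = -0.0018 in raphe and -0.0016 in cortex). Of their pairs, 4.94% and 12.96% were over 0.1. Whether raphe and cortex samples of the same number came from the same animal was not checked. The replicate block changed no call of the 5 genes other than that of Pnpla2 between sham regions. With 2 sham samples at a time, and with Cyp4b1 and Pla1a near background, small differences were not detectable.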

Other observations

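Some samples belong to no comparison. The raphe sham sample at 30 min, on type A alone, read 969 for the second Gpd1 probe set, 36.5 for Cyp4b1 and 53.4 for Pla1a. The 2 cortex sham samples at 30 min read 1070 and 694 for the second Gpd1 probe set. The cortex sham sample at 72 h read 1958 for Gpd1, 955 for Pnpla2 and 474 for Acer2.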
